A study of Mus musculus with 2 samples.

Results

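The cytosolic ribosomal protein genes were followed across the cells of 2 single-cell libraries from mouse brain. Members were chosen by name: symbols that begin with Rpl or Rps and a digit, the stalk genes Rplp0, Rplp1 and Rplp2, and Rpsa, without the Rps6k kinases and without features named as pseudogenes. Of the 25906 features in the files, 87 matched, and 83 had at least 30 UMIs (unique molecular identifiers, 1 per captured transcript) over both libraries. These 83 comprise 33 small-subunit and 49 large-subunit names and Rps19bp1, which encodes a nucleolar partner of Rps19 and is not itself a ribosomal protein. Of the 83, 77 are the standard ribosomal proteins and 5 are copies or paralogs of another member (Rps27rt, Rps27l, Rpl7l1, Rpl22l1 and Rpl36al). The name rule does not match every ribosomal protein: Fau and Rack1, for example, lie outside it. The 4 names under the minimum were Rps23rg1 with 17 UMIs, Rpl39l with 14, Rpl3l with 12 and Rpl10l with 0.

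Whole brains of adult mice were the source, and the sort took endothelial cells together with astrocytes, with 1 library for each genotype. One library came from IL34LacZ/+ mice, which the design text calls WT and the labels call control, and the other from IL34LacZ/LacZ mice, called KO or mutant. Both genotypes carry at least 1 LacZ allele of Il34, the gene of a cytokine that binds Csf1r, so no library without the allele is part of the design. The series title links the work to perivascular macrophages and to vascular function. How many mice were pooled, their exact age and how the sort was gated are not stated in the labels. Only astrocytes appear in the sample titles, whereas another field lists both types. With 1 library per genotype there was no replicate and no test, and every interval given is a 95% interval for counting error only.

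There were 3901 barcodes and 26679053 UMIs for IL34LacZ/+, and 5400 barcodes and 36696941 UMIs for IL34LacZ/LacZ. After filtering and removal of marked doublets, 1665 and 1168 cells were kept. The targeted gene did not check the labels: Il34 reached 10.2 UMIs per 1000000 (CPM; 8.73 to 11.9) in the kept cells of the library labelled IL34LacZ/+ and 18.8 CPM (16.6 to 21.2) in the library labelled IL34LacZ/LacZ, and whether its 3′ tag lies outside the altered part of the gene was not given. By class it stood at 375 (288.5 to 478) and 513 CPM (429.5 to 609) in pericyte-like cells, and the other way in fibroblast-like cells, at 88.15 (70.0 to 109.6) and 48.65 CPM (35.5 to 65.1). Cells were gated into classes from marker lists, and 1486 and 998 cells fell into 7 classes, named here only as resembling a type. The median cell of each large class had 90.9% or more of its own markers detected, fibroblast-like cells 63.6%. The gate used these same markers, so these values describe the gate and do not check identity. The median choroid plexus epithelium-like cell also had 42.9% and 57.1% of the ependymal list detected, and the median fibroblast-like cell 30.8% of the astrocyte list in both libraries. Both labelled types were present, with 526 and 303 endothelial-like and 254 and 118 astrocyte-like cells, first for the library labelled IL34LacZ/+. Besides them the libraries held 312 and 227 choroid plexus epithelium-like, 250 and 230 oligodendrocyte-like, 65 and 62 fibroblast-like, 34 and 48 pericyte-like and 45 and 10 microglia-like cells. Microglia-like cells were small, with a median of 1772 and 1722 UMIs. Among their 10 leading genes, Csf1r, Trem2, C1qa and C1qb were markers of the gate itself. The others, outside that marker list, were Ctss, C1qc, Tyrobp, Fcer1g, Ly86 and Laptm5. The libraries shared 8 barcodes, of which 6 and 3 were in these classes.

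Each ribosome is built from a small subunit, which reads the messenger RNA, and a large subunit, which joins the amino acids, and their proteins are made in matched amounts. Ribosomal protein messengers are short, abundant and stable, and most begin with a run of pyrimidines, the 5′ terminal oligopyrimidine or TOP motif, through which the mTOR and Larp1 pathway controls their translation together. In the brain, choroid plexus epithelium is known for secreting large amounts of protein, whereas the cells of resting vessels divide rarely.

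Short stretches around annotated start sites were taken from RefSeq promoters of GRCm38.p6, from 10 bases before the start to the 20 bases that open the transcript. The table held 63 of the 83 members, 57 of them standard ones. Capitals mark the longest run of C and T that reaches within 5 bases of the start, where it has at least 5 bases. Of equally long runs only the first is marked. The members shown include some with low and some with high ratios between the libraries in endothelial-like cells, a gene and its retrocopy, and members that took unequal parts of the ribosomal protein UMIs in different classes.
Rpl28: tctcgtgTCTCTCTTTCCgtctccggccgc
Rps4x: gctgggcggagcaacccaggctccagcgcg
Rpl12: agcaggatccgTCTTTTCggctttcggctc
Rpl22l1: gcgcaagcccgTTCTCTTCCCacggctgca
Rpl7l1: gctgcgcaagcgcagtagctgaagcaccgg
Rps27: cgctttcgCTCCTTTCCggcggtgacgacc
Rps27rt: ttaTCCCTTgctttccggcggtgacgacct
Rpl38: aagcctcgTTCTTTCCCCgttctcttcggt
Rpl41: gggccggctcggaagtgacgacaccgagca
Rpsa: ttatttaaggacgtcatttccggccgcccg
These lie at chr7:4792955-4792984 on the plus strand for Rpl28, chrX:102189372-102189401 on the minus strand for Rps4x, chr2:32961702-32961731 (plus) for Rpl12, chr3:28805498-28805527 (plus) for Rpl22l1 and chr17:46782637-46782666 (minus) for Rpl7l1. Rps27 is at chr3:90213629-90213658 (minus), Rps27rt at chr9:114982720-114982749 (minus), Rpl38 at chr11:114668570-114668599 (plus), Rpl41 at chr10:128549149-128549178 (minus) and Rpsa at chr9:120127756-120127785 (plus). A pyrimidine run spans the annotated start of Rpl28, Rps27 and Rpl38, and none of at least 5 bases reaches the annotated start of Rps4x, Rpl7l1, Rpl41 or Rpsa. In Rps27rt a run as long as the marked one, ctttcc, begins at the annotated start. Annotated starts can lie some bases from the start used in a tissue.

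A run of at least 7 C or T near the start was present in 26 of 57 standard members (45.6%) and in 15.7% of the 27025 genes with a promoter in the table. The motif CCGGAAG, on either strand of the 300-base promoter, was present in 24 of 57 (42.1%) against 9.93% of all genes, and CTTTCC, which can overlap the pyrimidine run, in 29 of 57 (50.9%) against 29.3%. TATAAA was present in 6 of 57 (10.5%) against 15.7%. In endothelial-like cells the 26 standard members with the run had a median log2 ratio between the libraries of -0.69 and the 31 without it a median of -0.73, so the ratio described below was of like size in both.

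The classes differed widely in the share of their UMIs that came from the members. In choroid plexus epithelium-like cells members made 6.68% of UMIs (6.65 to 6.70) in the library labelled IL34LacZ/+ and 6.71% (6.69 to 6.74) in the library labelled IL34LacZ/LacZ. Oligodendrocyte-like cells held 3.37% and 3.14%. Both sorted types were far lower: endothelial-like cells held 1.22% (1.20 to 1.23) and 0.752% (0.739 to 0.766), and astrocyte-like cells 0.884% (0.872 to 0.896) and 0.762% (0.746 to 0.778). Among the smaller classes, the share was 7.03% and 6.70% in fibroblast-like, 0.987% and 0.514% in pericyte-like, and 10.6% and 13.8% in microglia-like cells. Choroid plexus epithelium-like and then oligodendrocyte-like cells were the highest of the 4 large classes in both libraries. Endothelial-like cells were above astrocyte-like cells in the library labelled IL34LacZ/+, and the intervals of these classes overlapped in the other library. With no mitochondrial limit the order turned in both, to 1.31% and 1.72% in astrocyte-like against 1.22% and 0.762% in endothelial-like cells. In choroid plexus epithelium-like cells a single messenger, Ttr for the thyroid hormone carrier transthyretin, took 294400 and 245600 CPM. With Ttr, haemoglobin and mitochondrially encoded UMIs left out of the total, the choroid share became 10.98% and 10.53%.

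**Figure D1:**
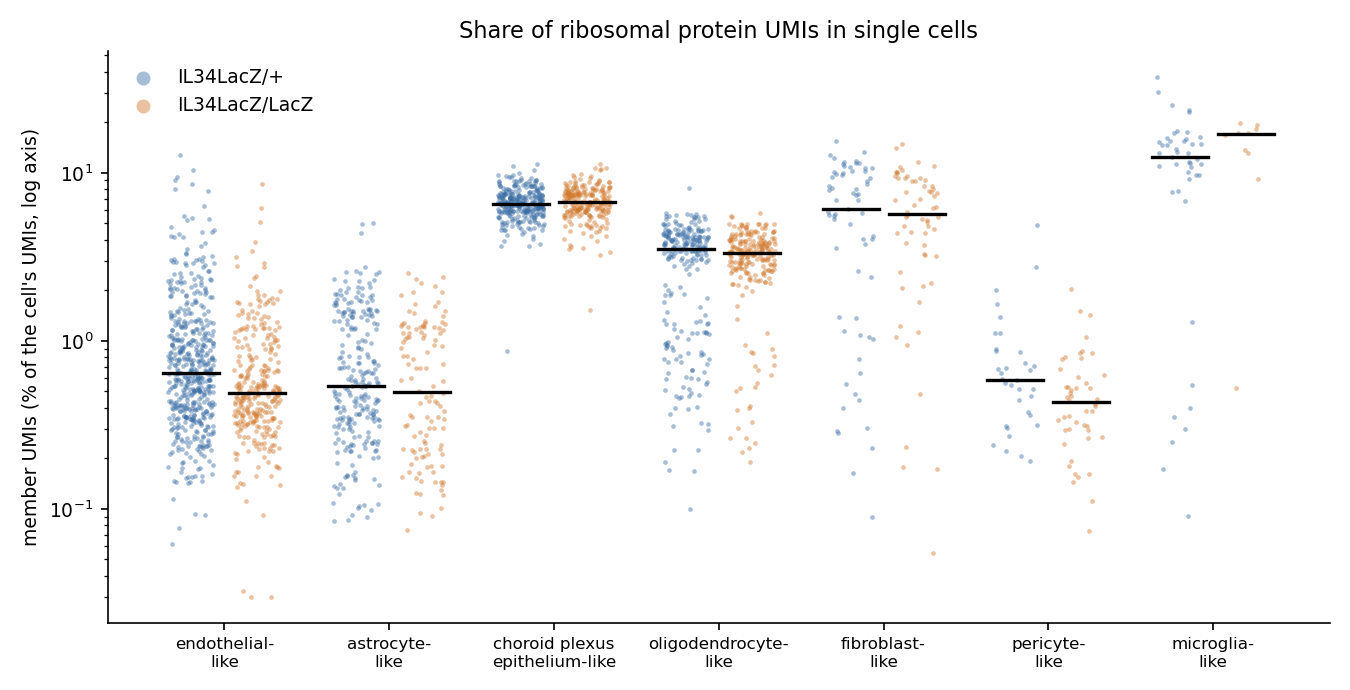
Share of each cell's UMIs that came from the 83 members (vertical axis, percent, log axis) for the 7 classes, blue for IL34LacZ/+ and orange for IL34LacZ/LacZ; each point is a cell, bars are medians, and shares under 0.03% are drawn at 0.03%. Choroid plexus epithelium-like cells have medians of 6.55% and 6.73%, above medians of 0.643% and 0.487% in endothelial-like and 0.542% and 0.496% in astrocyte-like cells.

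Level by level, every member took part in these class differences. All 83 members were higher in choroid plexus epithelium-like than in endothelial-like cells in both libraries, past 1.5-fold with an interval that left out 1, a rule that 26.1% of all features tested met. The median member was 5.47-fold and 9.05-fold higher, against 0.460-fold and 0.509-fold for all features. Between oligodendrocyte-like and astrocyte-like cells, 82 of 83 members were higher in the former in both libraries (27.1% of all features), by a median of 3.65-fold and 3.97-fold. In both contrasts the smallest difference was that of Rpl7l1, a paralog of the large-subunit gene Rpl7 that acts in ribosome assembly. The median member stood at 139 and 86.4 CPM in endothelial-like cells, 99.4 and 87.5 CPM in astrocyte-like cells, 774 and 769 CPM in choroid plexus epithelium-like cells and 397 and 370 CPM in oligodendrocyte-like cells. Levels are UMIs from 3′ tags, counted once per captured transcript and not divided by length.

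**Figure D2:**
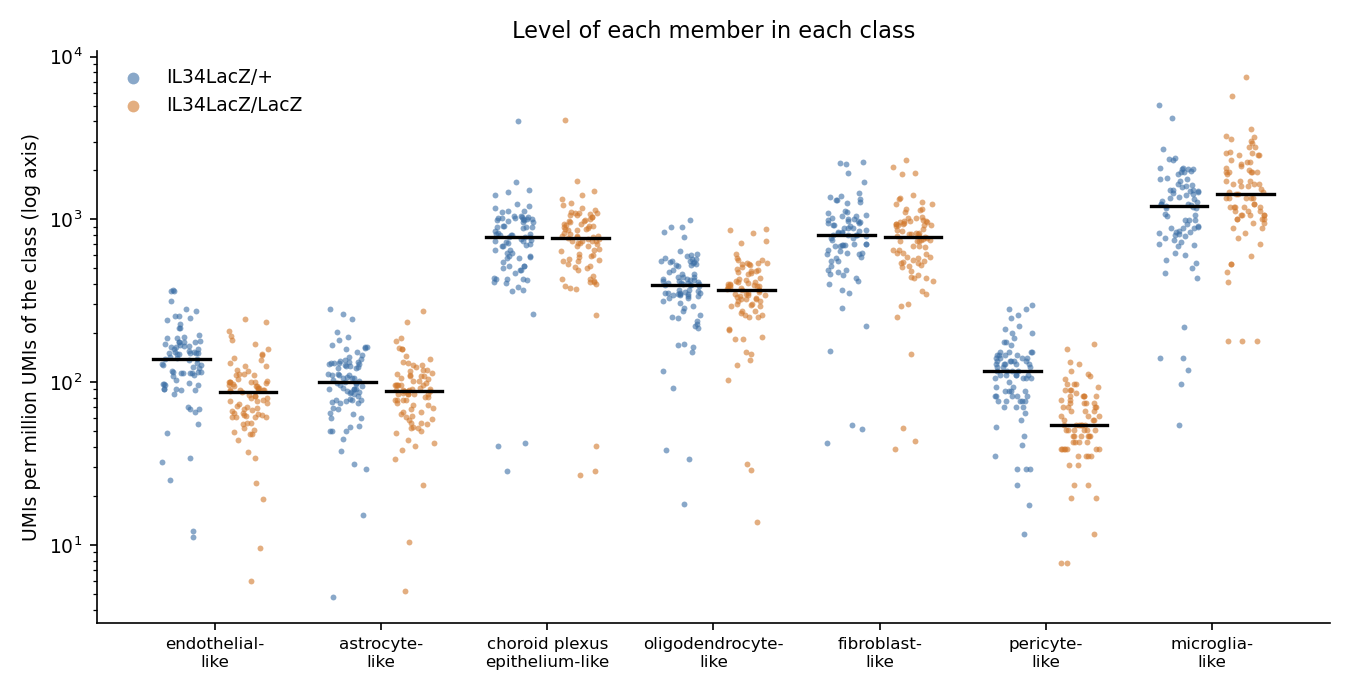
Level of each of the 83 members (vertical axis, UMIs per 1000000 UMIs of the class, log axis) in the 7 classes, blue for IL34LacZ/+ and orange for IL34LacZ/LacZ; each point is a gene, bars are medians, and members at 0 are not drawn. Medians run from 54.4 CPM in pericyte-like cells of IL34LacZ/LacZ to 1420 CPM in microglia-like cells of the same library.

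The members share features that the name rule did not use. By the GENCODE M21 annotation of GRCm38 they lie on 19 chromosomes, with a median spliced length of 878 bases and 5 exons, against 2592 bases for all protein-coding features, and their genes span a median of 3289 bases against 17540. Other short genes were also lower in both sorted types than in oligodendrocyte-like and choroid plexus epithelium-like cells, though endothelial-like cells were below astrocyte-like cells for them. The 1943 other protein-coding genes with spliced length under 1000 bases and span under 10000 bases made 1.43% and 1.04% of UMIs in endothelial-like, 2.31% and 2.04% in astrocyte-like, 4.55% and 4.15% in oligodendrocyte-like, 9.14% and 9.32% in choroid plexus epithelium-like, and 11.6% and 16.0% in microglia-like cells. The part of gene length in the class differences was not tested.

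Several sets of barcodes can be set beside the low shares. Barcodes under 1000 UMIs held 7.41% and 6.55% of UMIs from the members, at median mitochondrial shares of 37.95% and 43.3%. The 13 and 10 neuron-like cells held 0.251% (0.217 to 0.289) and 0.271% (0.236 to 0.311), the lowest of any class, at median depths of 4409 and 4147 UMIs. Ttr, whose source among the classes is the choroid plexus, stood at 1415 and 1120 CPM in endothelial-like cells and at 1185 and 773 CPM in neuron-like cells, which should lack it. Per Ttr UMI there were 2.12 and 3.51 member UMIs in neuron-like cells, 2.04 and 2.35 in the lowest quartile group of endothelial-like cells by member share, and 1.80 and 2.30 in the lowest quartile group of astrocyte-like cells. In the highest quartile group of endothelial-like cells there were 22.5 and 13.4. All endothelial-like cells had 8.58 and 6.72, and barcodes under 1000 UMIs had 10.0 and 10.4. The lowest quartile group of endothelial-like cells held 0.270% and 0.253% of UMIs from the members at median depths of 4838 and 5286 UMIs. The groups were formed by member share itself, so their order is a description, and how much of the lowest shares is free RNA was not tested.

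Within a class, large-subunit and small-subunit messengers moved together from cell to cell. When endothelial-like cells were ordered by small-subunit share and cut into quartile groups, the large-subunit share went from 0.199% through 0.302% and 0.520% to 1.85% in the library labelled IL34LacZ/+, and from 0.182% through 0.248% and 0.346% to 1.02% in the other. Astrocyte-like cells went from 0.139% to 1.10% and from 0.101% to 0.922%. Choroid plexus epithelium-like cells went from 3.13% to 5.01% and from 2.95% to 5.03%. Along the quartile groups of endothelial-like cells Ttr stayed between 1361 and 1491 CPM in one library and between 1003 and 1317 CPM in the other, while the summed genes of the dissociation response (Fos, Jun, heat shock genes and others) went from 305 to 1806 CPM and from 336 to 676 CPM. The part of dissociation in the spread between cells was not tested. Both subunit shares come from the same cells and depth, so this is a description of the cells.

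**Figure D3:**
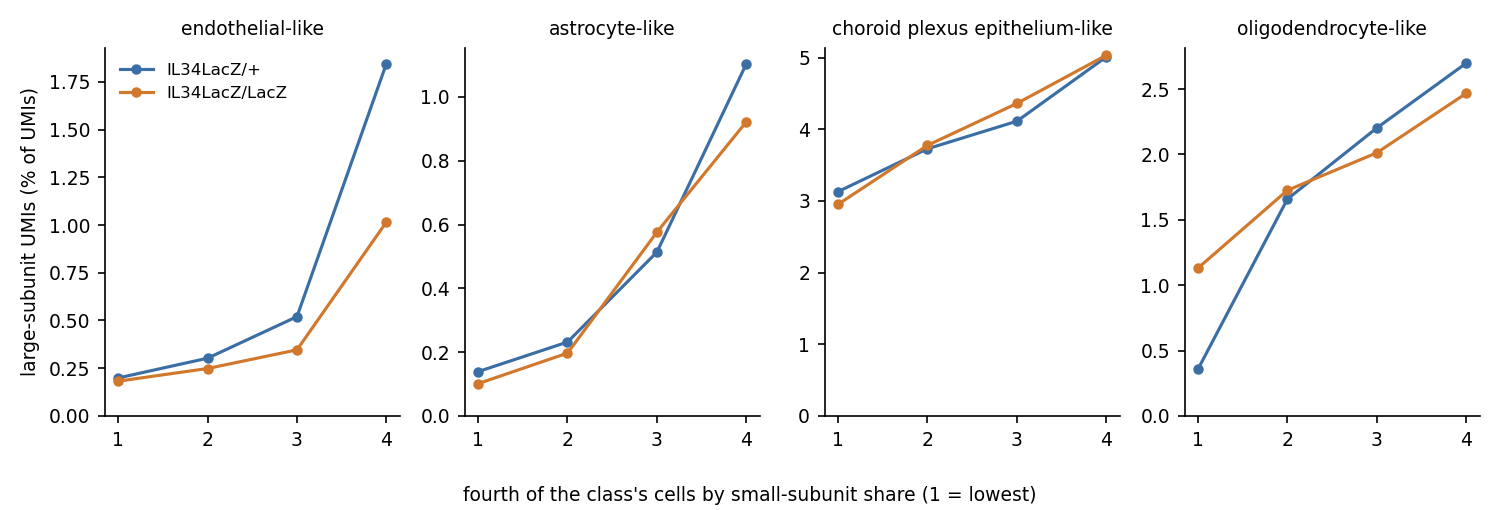
Large-subunit UMIs (vertical axis, percent of UMIs) in quartile groups of each large class's cells ordered by small-subunit share (horizontal axis, 1 lowest to 4 highest), blue for IL34LacZ/+ and orange for IL34LacZ/LacZ. The last quartile group of endothelial-like cells reaches 1.85% and 1.02%, while choroid plexus epithelium-like cells lie between 2.95% and 5.03% throughout.

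The small subunit took a near constant part of the member UMIs, between 40.2% and 43.3% in the 4 large classes and both libraries and between 39.03% and 44.5% with the 3 small ones. Haemoglobin-dominated barcodes stood apart, with 30.8% and 31.1% from the small subunit. In these 652 and 1625 barcodes, where haemoglobin made 95.4% and 94.9% of UMIs, Rpl41 alone took 19.7% and 20.1% of member UMIs.

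Members differed modestly in the part of the ribosomal protein UMIs that each class gave them. Over the 82 members with at least 30 UMIs in every large class, the class with the largest part exceeded that with the smallest by a median of 1.335-fold. The difference passed 1.5-fold for 25 members and 2-fold for 5. The 5 were Rpl7l1, Rps19bp1, Rpsa, Rpl41 and Rps27l, of which 3 are not standard ribosomal proteins, and Rpl4 came next, at 0.738% and 0.804% in oligodendrocyte-like and 0.390% and 0.382% in choroid plexus epithelium-like cells. Rpl41, the smallest ribosomal protein, made 6.004% and 6.10% of member UMIs in choroid plexus epithelium-like cells, 3.01% and 3.09% in endothelial-like, 2.97% and 3.05% in astrocyte-like, and 2.47% and 2.36% in oligodendrocyte-like cells. Rpsa, the small-subunit protein that also serves as the laminin receptor, made 1.76% and 1.84% in oligodendrocyte-like cells and 0.641% and 0.665% in choroid plexus epithelium-like cells. Rpl7l1 made 0.330% and 0.307% in astrocyte-like cells against 0.0633% and 0.0605% in choroid plexus epithelium-like cells. Rps27l, a p53-responsive paralog of Rps27, made 0.572% and 0.557% in choroid plexus epithelium-like cells against 0.267% and 0.253% in endothelial-like cells. Between the named classes these 4 differed more than between the libraries, but for Rpl7l1 the highest class was not the same in both libraries, with endothelial-like cells at 0.2045% and 0.317%.

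**Figure D4:**
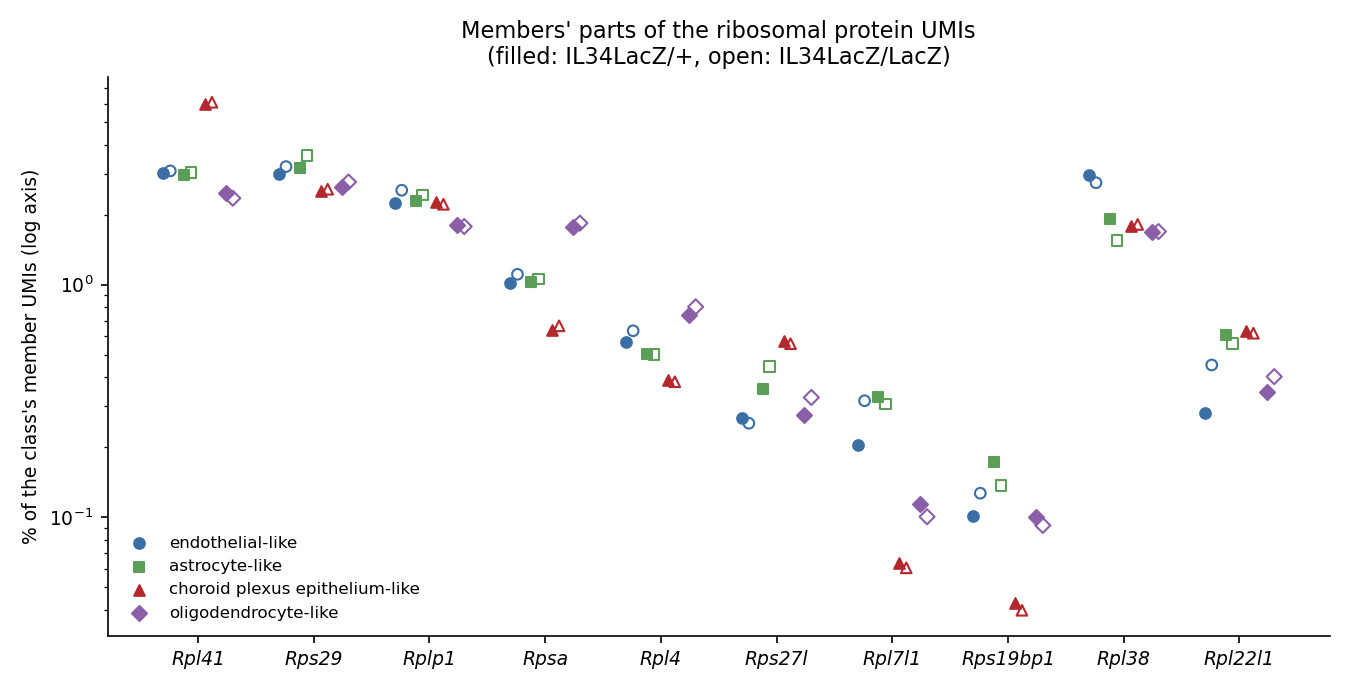
Part of each class's member UMIs (vertical axis, percent, log axis) for 10 members in the 4 large classes; filled symbols are IL34LacZ/+ and open symbols IL34LacZ/LacZ. Rpl41 lies at 6.004% and 6.10% in choroid plexus epithelium-like cells and at 3.09% or less in the other 3 classes, and Rpsa lies highest in oligodendrocyte-like cells.

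Rpl38, a large-subunit protein known for its part in patterning of the skeleton, was highest in endothelial-like cells at 2.98% and 2.75% of member UMIs, against 1.55% to 1.92% in the other large classes. Rps29 of the small subunit was highest in microglia-like cells at 4.73% and 5.46%, against 2.52% to 3.61% in the large classes. Rpl22l1, a paralog of Rpl22, made 0.2815% and 0.451% in endothelial-like cells and 0.633% and 0.619% in choroid plexus epithelium-like cells, while Rpl22 itself made 0.732% and 0.855% and then 0.612% and 0.614%. Rps27rt, a retrocopy in 1 exon, shares a stretch of 341 identical bases with Rps27, so reads could be split between them and the 31 and 10 UMIs of Rps27rt in endothelial-like cells are uncertain. The longest identical stretch of the other pairs was 11 bases for Rps27 and Rps27l, 26 for Rpl22 and Rpl22l1, 11 for Rpl7 and Rpl7l1 and 24 for Rpl36a and Rpl36al.

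Between the libraries, the members of endothelial-like cells were lower in IL34LacZ/LacZ. The class's share was 1.61-fold lower, a log2 ratio of -0.69 (-0.72 to -0.66), and was alike for the small subunit at -0.68 and the large subunit at -0.70. Of the 83 members, 57 were lower past 1.5-fold with an interval that left out 1, against 8.22% of all 9923 features tested, and none was higher, against 2.82%. All 83 log2 ratios were below 0, with a median of -0.69 beside -0.04 for all features, and the interval lay below 0 for 75. The median cell gave a smaller difference, from 0.643% to 0.487%, a log2 ratio of -0.40. Cells rich in the members were fewer: a share of at least 2% was reached by 67 of 526 cells (12.7%, 10.0 to 15.9) that held 54.1% of the class's member UMIs, against 12 of 303 cells (3.96%, 2.06 to 6.82) that held 23.4%. A share of at least 1% was reached by 30.6% (26.7 to 34.7) and 21.1% (16.7 to 26.2) of cells. At 5% the intervals overlapped, with 12 cells (2.28%, 1.18 to 3.95) and 3 cells (0.990%, 0.205 to 2.87). These intervals count cells of 1 library per genotype, which are not replicates, so they do not measure a difference between genotypes. Cells with a share of at least 2% were deeper, with medians of 5567 and 6980 UMIs against 4171 and 4761 in the others. The part of unmarked doublets was not tested. Without the 2% of cells highest in member share the log2 ratio was -0.52 and 35 members were lower. With each cell thinned to 1000 UMIs it was -0.51 with 23 lower. All features were not counted under these alternatives.

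**Figure D5:**
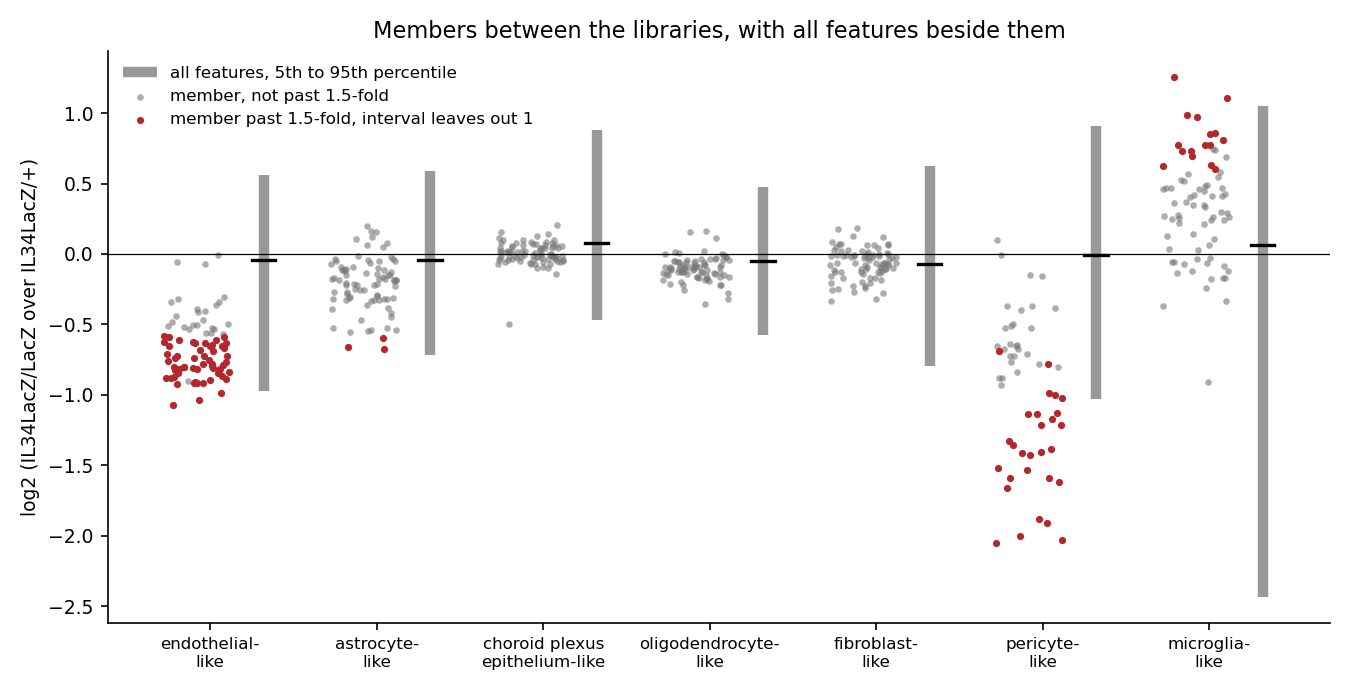
Log2 ratio of IL34LacZ/LacZ over IL34LacZ/+ (vertical axis) for members with at least 30 UMIs in the class; red points are members past 1.5-fold with an interval that leaves out 1, grey points the others, and the grey bar with its black line gives the 5th to 95th percentile and the median of all features tested. All endothelial-like points lie below 0 with a median of -0.69, and choroid plexus epithelium-like points lie close to 0.

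The stalk proteins of the large subunit recruit elongation factors. Rplp0, the base of the stalk, stood at 91.1 CPM in endothelial-like cells of IL34LacZ/+ and 50.7 CPM in those of IL34LacZ/LacZ, a log2 ratio of -0.85 (-1.22 to -0.49). Rplp2 stood at 139 and 90.0 CPM (-0.63), and Rplp1 at 273 and 192 CPM (-0.51, -0.70 to -0.32), which did not pass the fold. The intervals of all 3 stalk genes lay below 0.

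In the small subunit, Rps4x, an X-linked core protein, was lower at 136 and 66.2 CPM, a log2 ratio of -1.04 (-1.36 to -0.73). Rps29 and Rps21, which with Rpl41 and Rplp1 were among the members with most UMIs over both libraries, were lower at 364 and 242.5 CPM (-0.59) and at 248 and 160 CPM (-0.63). In choroid plexus epithelium-like cells Rps29 stood at 1683 and 1730 CPM and Rps21 at 1461 and 1412 CPM. Rpsa stood at 123 and 83.4 CPM (-0.56), Rps6, the S6 kinase substrate, at 103 and 69.7 CPM (-0.56), Rps14 at 216 and 149 CPM (-0.53), Rps27a, made as a fusion with ubiquitin, at 166 and 119 CPM (-0.48), and Rps3 of the messenger entry site at 96.5 and 76.3 CPM (-0.34, -0.65 to -0.03). These last 5 did not pass the fold, though each interval lay below 0.

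In the large subunit the lowest ratio was that of Rpl17, at 150 and 71.5 CPM, a log2 ratio of -1.07 (-1.38 to -0.77). Rpl28 was lower at 178 and 90.0 CPM (-0.99), and Rpl10, which completes the large subunit late in its maturation, at 99.4 and 52.4 CPM (-0.92). Rpl5 at 116 and 68.5 CPM (-0.75) and Rpl11 at 153 and 92.4 CPM (-0.73), the pair that binds 5S ribosomal RNA and Mdm2, were lower to a like degree. Rpl41 was lower at 366 and 232 CPM (-0.65). Rpl13a at 176 and 125 CPM (-0.50) and Rpl3 of the peptidyl transferase centre at 88.9 and 70.3 CPM (-0.34) did not pass the fold.

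The highest ratios in endothelial-like cells were near 0. Rpl22l1 stood at 34.2 and 34.0 CPM, a log2 ratio of -0.01 (-0.51 to 0.48), Rpl7l1 at 24.8 and 23.8 CPM (-0.06, -0.66 to 0.52), and Rpl12 at 65.9 and 62.6 CPM (-0.07, -0.43 to 0.28). The paralogs of the first pair, Rpl22 at 88.9 and 64.4 CPM (-0.47) and Rpl7 at 113 and 73.3 CPM (-0.62) had ratios further below 0, but the intervals of each pair overlap. Rps27 at 213.5 and 117 CPM (-0.87) and Rps27l at 32.4 and 19.1 CPM (-0.76) were both lower. Rpl36a at 55.1 and 44.1 CPM (-0.32) and Rpl36al at 48.95 and 36.95 CPM (-0.41) did not pass the fold, with intervals that include 0. Rpl26 at 154 and 92.4 CPM (-0.74) and Rpl39 at 142 and 82.2 CPM (-0.79) were lower. Genes picked for extreme ratios carry intervals that do not allow for that choice.

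Other measures differed between the libraries in the same cells. In endothelial-like cells the 15 genes of the dissociation list summed to 736.5 and 469 CPM, and 6 of them were lower past 1.5-fold, among them Fos with a log2 ratio of -2.96, Jun with -1.25 and Junb with -1.08. Mitochondrially encoded UMIs were higher in IL34LacZ/LacZ, with a log2 ratio of 0.38 (0.37 to 0.40). Among genes read as free RNA of other cells, Apoe was lower at 431 and 267 CPM, Ttr did not pass the fold at 1415 and 1120 CPM, and the haemoglobin gene Hbb-bs was higher. The 1943 other short genes described above also took a smaller share in IL34LacZ/LacZ, at 1.43% and 1.04% of UMIs. Member UMIs per UMI of those genes were 0.851 and 0.725. The part of each of these in the ribosomal protein difference was not tested. Among endothelial-like cells with at most 5% mitochondrial UMIs the share was 1.13% in 467 cells and 0.650% in 232, a log2 ratio of -0.80. From 5% to 10% it was 2.54% in 48 cells and 0.963% in 55. From 10% to 15% it went the other way, at 1.23% in 11 cells and 2.39% in 16, though the cell medians there were 1.12% and 0.923%.

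The related genes were read against the 8.22% of all features that were lower in endothelial-like cells. Fau, which encodes a small-subunit protein fused to a ubiquitin-like protein, was lower at 254 and 141 CPM (log2 ratio -0.85), while Rack1 stood at 79.55 and 59.6 CPM (-0.42) without passing the fold. Of 15 translation factors and related messengers of the TOP class, 4 were lower and none higher: Eef1a1 (-0.64), Eef1b2 (-0.63), Eif3f (-0.88) and Tpt1 (-0.71), with a list median of -0.31. That share was above the share of all features, and the summed list had a log2 ratio of -0.435 (-0.512 to -0.358). Of 24 measured genes of ribosome biogenesis Ncl (-0.81) and Eif6 (-0.69) were lower, a share near that of all features, and the list median was 0.04. Of 77 mitochondrial ribosomal protein genes 8 were lower, also near that share, with a median of -0.30 beside -0.04 for all features. None of 14 measured regulators of growth and TOP translation passed the fold, with Mtor at 64.4 and 67.9 CPM and Larp1 at 96.1 and 82.2 CPM. No gene of the last 4 lists was higher past the fold in endothelial-like cells.

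Astrocyte-like cells differed less. Their share had a log2 ratio of -0.22 (-0.25 to -0.18), and of 82 members measured 3 were lower, against 3.87% of all features, and none was higher, against 2.48%. The count of lower members was near the share of all features. The 3 were Rps10 at 123 and 77.1 CPM (-0.67), Rps23 of the decoding centre at 152 and 96.2 CPM (-0.66) and Rps3a1 at 95.4 and 63.2 CPM (-0.59). All 3 are small-subunit genes, but the share ratios of the subunits were alike. They were -0.24 (-0.30 to -0.18) for the small and -0.20 (-0.24 to -0.15) for the large subunit. The highest ratios were those of Rps6 at 59.7 and 68.4 CPM (0.20, -0.22 to 0.61), Rpl27 at 81.9 and 91.8 CPM (0.16) and Rpl36a at 49.7 and 55.4 CPM (0.16), with intervals that include 0. In the same cells Ttr was lower at 1531 and 787 CPM (-0.96) and Hbb-bs at 3680 and 1996 CPM (-0.88), and their part in the ratio was not tested. The direction of the share ratio rested on the mitochondrial limit. With no limit, 126 and 143 astrocyte-like cells of over 15% mitochondrial UMIs, which held 4.02% and 4.16% from the members at median depths of 1852 and 2209 UMIs, entered the class and the log2 ratio became 0.39, with 6 members higher and none lower. With a limit of 5%, 67 and 24 cells remained, the log2 ratio was -0.87 and 36 members were lower. All features were not counted under these alternative limits, so the member counts have no such share beside them.

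In choroid plexus epithelium-like cells the share was alike in both libraries, with a log2 ratio of 0.0077 (-0.00035 to 0.0158). No member was lower, against 1.22% of all features, and none was higher, against 7.96%. The widest ratios were those of Rps27rt at 40.3 and 28.5 CPM (-0.50), whose reads are uncertain, and Rpl35 at 517 and 595 CPM (0.20, 0.11 to 0.29). Next came Rpl26 at 1028 and 1146 CPM (0.16), Rpl36a at 501 and 553 CPM (0.14), Rpl7a at 591 and 534 CPM (-0.15) and Rps19bp1 at 28.6 and 26.7 CPM (-0.10). These values rest on 273499 and 221515 member UMIs.

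Oligodendrocyte-like cells had a share log2 ratio of -0.10 (-0.11 to -0.09), with no member lower, against 3.03% of all features, and none higher, against 1.68%. The lowest ratios were those of Rps27rt (-0.35), Rpl31 at 228 and 183 CPM (-0.32) and Rpl7l1 at 38.3 and 31.5 CPM (-0.28), and the highest those of Rpl35 at 168 and 188 CPM (0.16), Rps27l at 92.3 and 103 CPM (0.16) and Rpl22l1 at 117 and 126 CPM (0.12). The sign of the share ratio was not stable, since it was 0.06 for the mean of the cells' shares and 0.09 after thinning to 1000 UMIs. A share under 2% was found in 79 of 250 and 29 of 230 cells, and these had a median mitochondrial share of 10.6% and 11.2% against 5.14% and 5.75% in the cells above. The part of these cells in the ratio was not tested.

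The 3 small classes rest on few cells. Other short genes made 5.98% and 6.25% of UMIs in fibroblast-like, 1.72% and 0.935% in pericyte-like and 11.6% and 16.0% in microglia-like cells. The part of gene length in the ratios of these classes was not tested. In fibroblast-like cells the log2 ratio of the share was -0.07 (-0.08 to -0.05) and no member was lower, against 5.84% of all features. Pericyte-like cells had a ratio of -0.94 (-1.05 to -0.84), and 28 of 56 measured members were lower, against 7.95%, with 27 members not measured. In that class 3 of 34 cells of IL34LacZ/+ held 49.1% of its member UMIs, and the ratio of the cell medians was -0.45. Microglia-like cells went the other way, with a ratio of 0.37 (0.31 to 0.44) over 45 and 10 cells. Of 77 measured members 16 were higher and none lower. Of all 507 features tested there, which include the members, 66 were higher and 45 lower. The summed dissociation genes of the class were also higher, at 2116 and 7926 CPM. Within the class they were highest in the quartile group lowest in small-subunit share, at 4650 CPM and, over 3 cells, 22680 CPM. In the group highest in that share they stood at 292 and 309 CPM. The part of the dissociation genes in the ratio was not tested. Among members named after their values were seen, Rps27 stood at 1508 and 3608 CPM (1.26, 0.80 to 1.70) and Rps3 at 987 and 1952 CPM (0.98), while Rpl7a stood at 890 and 473 CPM (-0.91, -2.17 to 0.135).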

How the data were processed

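The files hold raw counts of UMIs per gene and barcode, deposited by the authors as unnormalized matrices, from 10x v3.1 libraries per the labels' protocols. Per the file headers the program was Cell Ranger 7.1.0, and the submitters' processing notes name mm10 and GRCm38.p6. No source used here states the annotation release or whether introns were counted, and Malat1 and Neat1 were not analysed here.

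Barcodes with at least 1000 UMIs, 500 genes and at most 15% mitochondrial UMIs were kept (1668 and 1175), without those marked by Scrublet (scanpy 1.11.5). It marked 3 and 7, or 0.18% and 0.596%, below the expected rates of 3.12% and 4.32% that it was given. A cell entered a class with at least 4 markers of its list, a lead of 20 percentage points over the next of 15 lists and haemoglobin under 50%, a rule set after the data were seen. UMIs were summed per class and library. Members with at least 30 UMIs over both libraries in a class were compared as CPM, the count per 1000000 UMIs of the class, with exact 95% intervals; a call needed 1.5-fold and an interval that left out 1. With 1 library per genotype no test was possible. Intervals cover counting error only. Named were, of the 5 members with most UMIs, those reported here, the 3 highest and 3 lowest ratios in each large class, the 6 members whose parts differed most between large classes, and lists by role and of paralog pairs; Rpl38, Rps29 in microglia-like cells, and Rps27, Rps3 and Rpl7a there were chosen after their values were seen. A few items that this rule or the lists take in are not reported here. Members and lists were chosen with earlier results of these data known. The scripts (Python 3.11.15, numpy 2.4.6, scipy 1.17.1, pandas 2.3.3, matplotlib 3.10.9) were tested on simulated data. Alternatives changed the mitochondrial limit, the denominator, the averaging, the depth per cell and the fold.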

Additional observations from a re-analysis of the deposited data

Results flagged for a closer look

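Some barcodes that entered no class had a member share above that of all kept cells, which was 4.051% and 3.937%. Haemoglobin-dominated barcodes, which also entered no class, were far lower at 0.2655% and 0.3079%. Barcodes over the mitochondrial limit held 5.768% of UMIs from the members in the library labelled IL34LacZ/+ and 5.684% in the library labelled IL34LacZ/LacZ, and barcodes under 1000 UMIs held 7.406% and 6.552%. Microglia-like cells had a share log2 ratio of IL34LacZ/LacZ over IL34LacZ/+ of 0.3734, opposite in sign to endothelial-like (-0.6909), astrocyte-like (-0.2154), oligodendrocyte-like (-0.1019), fibroblast-like (-0.06907) and pericyte-like cells (-0.9408). The differences between these ratios were not tested, with 1 library per genotype.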

How the results depend on the processing

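All ratios here are log2, IL34LacZ/LacZ over IL34LacZ/+. Counts under alternatives are of members only, without the share of all features beside them. The endothelial-like share ratio stayed below 0 in every setting run: -0.5335 for the mean and -0.4025 for the median of the cells' shares, -0.7995 at a mitochondrial limit of 5%, -0.5109 after thinning to 1000 UMIs and -0.5156 without the 2% of cells highest in member share; the median, the removal of Ttr and the removal of shared barcodes were chosen after seeing the data. Its lower members numbered 2 at 2-fold, 23 after thinning and 35 without those cells. The astrocyte-like ratio was -0.1285 for the median, -0.8662 at 5%, -0.1684 after thinning and reversed to 0.3906 with no mitochondrial limit; its lower members numbered 0 at 2-fold, 36 at 5% and 0 with no limit, where 6 were higher and Rps10 (0.2447), Rps23 (0.2812) and Rps3a1 (0.1327) reversed. The choroid plexus epithelium-like ratio was 0.02084 for the mean, 0.0385 for the median, -0.03542 with no limit and 0.01754 after thinning. It was 0.03919 without mitochondrial and haemoglobin UMIs and -0.06026 without Ttr too. At 5% it was -0.3894 with 8 members lower, over 21 and 11 cells. The median shares of these cells, 7.534% and 8.491%, went the other way. The oligodendrocyte-like ratio was -0.07026 for the median, -0.3838 at 5% with 4 members lower, -0.07879 with no limit, and reversed to 0.05993 for the mean and 0.08816 after thinning, where 4 were higher. The cause of these reversals was not tested. As the mean of the cells' shares, the share was 0.849% and 0.7348% in astrocyte-like cells, 6.76% in choroid plexus epithelium-like cells of IL34LacZ/LacZ, and 1.075% and 3.024% in endothelial-like and oligodendrocyte-like cells of IL34LacZ/+. Without mitochondrial and haemoglobin UMIs it was 0.9593% and 0.8311% (astrocyte-like), 7.396% and 7.6% (choroid), 1.246% and 0.7794% (endothelial-like) and 3.605% and 3.38% (oligodendrocyte-like), and without Ttr too 0.9609% and 0.8318%, 10.98% and 10.53%, 1.248% and 0.7803%, and 3.609% and 3.382%. Of 240 values of named members under alternatives, 24 had the other sign: the 3 above, of members past the fold, and others of members that had not passed it, of which 10 also left their counting interval (all at the 5% limit or after thinning). No paired analysis was possible because each genotype has 1 library.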
